A study of Homo sapiens with 6 samples.

Results

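The genes described here are the secreted and surface components of WNT signalling in BT-549 cells, an established triple-negative breast cancer (TNBC) line, together with 3 intracellular genes used as its readouts. They were taken by symbol from a table of 25545 genes and number 40. Of these, 19 encode WNT ligands, 10 encode Frizzled (FZD) receptors, 4 encode secreted Frizzled-related proteins (SFRPs), 4 encode Dickkopf (DKK) inhibitors, and the remaining 3 are AXIN2, LEF1 and TCF7. BT-549 cells grown in RPMI1640 medium with serum and insulin were transfected with a control siRNA (CsiRNA) or with NEAT1siRNA, and RNA was collected after 48 h. There were 3 libraries in each group. The comparison addressed which transcripts change when NEAT1, the long noncoding RNA scaffold of nuclear paraspeckles, is silenced. The sample titles carry a "tet-" prefix that the sources do not explain, and a single NEAT1siRNA is named, so that an effect of this siRNA on other RNAs cannot be told apart from an effect of losing NEAT1. The libraries came from cells cultured in triplicate, and nothing states that the triplicates were transfected separately, so p-values measure the spread between these libraries, which may be technical.

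WNTs are lipid-modified secreted ligands that bind the cysteine-rich domain of Frizzled receptors. With the coreceptors LRP5 and LRP6 this stabilizes beta-catenin, which acts in the nucleus with TCF and LEF factors on genes such as AXIN2. Other ligands, with WNT5A as the best-known example, mostly signal without beta-catenin, through planar polarity and calcium branches, and are known in mesenchymal breast cancer cells for effects on migration. SFRPs carry a Frizzled-like domain and bind WNTs outside the cell, whereas DKK1 blocks the LRP coreceptors.

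NEAT1 was lower in every library of BT-549/NEAT1siRNA cells, at a TPM of 2.73 to 4.36 against 7.68 to 13.4 in BT-549/CsiRNA cells, or 31.5% of the control mean. TPM is a transcript level scaled by gene length and by the total of the library. On the log2(TPM + 1) scale the change of NEAT1 was -1.41 (SE 0.14, adjusted p = 1.21e-07, limma). Each library held 15787040 to 20343890 reads, as recovered from the deposited values, and 4 short RNAs (RN7SK, RN7SL1, RN7SL2 and RPPH1) took 64.4% to 68.1% of the TPM but 2.3% to 3.01% of the reads, so that the TPM of messenger RNAs read low. Within groups, deviations of a library from its group mean followed transcript GC content, across 10106 genes that are not independent replicates, most strongly in NEAT1siRNA replicate 2 (Spearman's rho = -0.733) and in the opposite direction in NEAT1siRNA replicate 1 (rho = 0.683). Of the mesenchymal markers, VIM lay at 859 to 1110 TPM, SPARC at 340 to 382 TPM and ZEB1 at 13.5 to 17.3 TPM, while CDH2 (93.7 to 113 TPM with CsiRNA, 76 to 91.1 with NEAT1siRNA) and FN1 (78.1 to 93.8 and 56.3 to 66.4 TPM) were lower in all NEAT1siRNA libraries. Of the receptor and epithelial genes held to be low in this line, ESR1 was listed at 0, PGR, EPCAM, CDH1 and KRT8 did not exceed 0.283 TPM, and ERBB2 lay at 5.76 to 6.36 TPM. Of the leukocyte and endothelial markers reported CD3E, CDH5 and VWF were listed at 0, PTPRC and PECAM1 reached at most 0.058 and 0.0125 TPM, and CD68 lay at 23.2 to 29.2 TPM.

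BT-549 cells expressed part of the WNT components. Of the 40 genes, 12 were listed at 0 in all 6 libraries and 15 were above 0 with a mean under 1 TPM. The other 13 reached a mean of at least 1 TPM over the 6 libraries, the minimum for the test. Of all 25545 genes, 7014 were at 0, 7810 were above 0 under that minimum and 10721 reached it. Among the 40, the genes at 0 were WNT1, WNT6, WNT7A, WNT8A, WNT8B, WNT9B, WNT10A, WNT16, FZD10, SFRP4, SFRP5 and DKK4. With 109462290 reads in the 6 libraries together, 0 reads allow a level of up to 0.0274 reads for each 1000000 in a library, for counting error only. Among the 13 tested genes, WNT5B, FZD7, FZD8, SFRP1 and DKK1 fell and WNT5A rose at an adjusted p under 0.05 (limma), while 7 did not pass. The 5 falls and 1 rise stand beside 8.98% of all 10721 genes tested that fell and 4.99% that rose. The NEAT1siRNA libraries all lay below the CsiRNA libraries for 8 of the 13 genes and above them for 2, compared with 19.3% and 11% of all tested genes. The median log2 fold change of the 13 genes was -0.13, and that of all tested genes was -0.044. In bulk RNA, fewer cells of a type and less RNA per cell cannot be told apart.

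**Figure D1:**
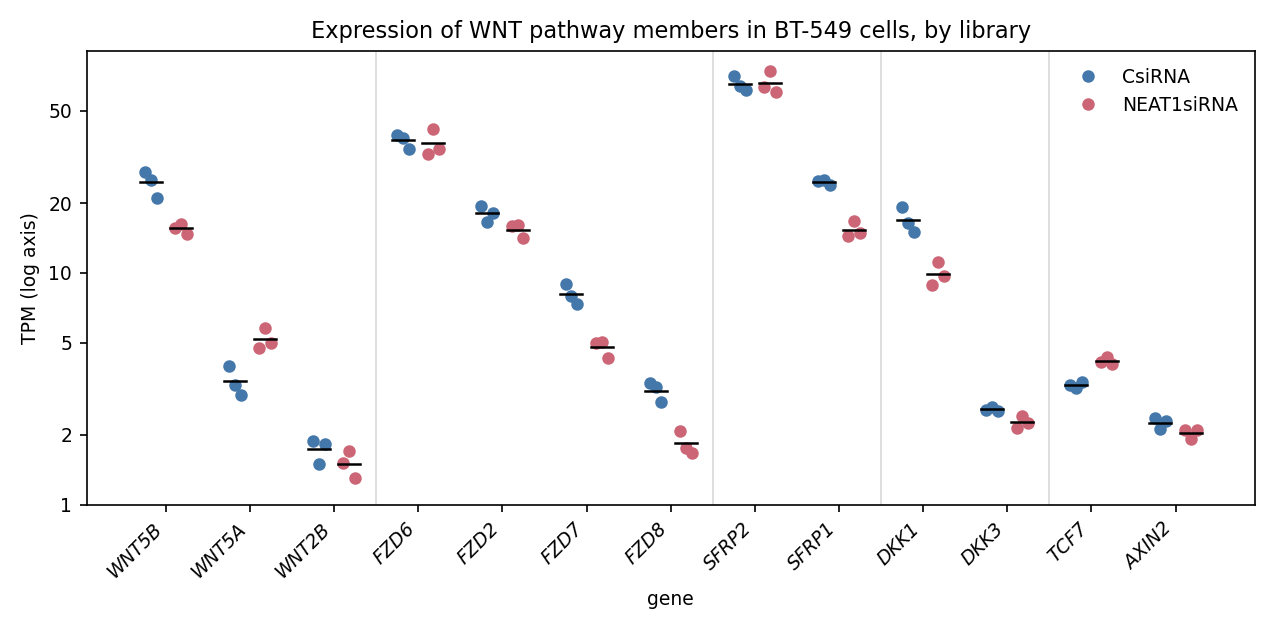
TPM on a log axis for the 13 WNT pathway genes with a mean of at least 1 TPM, with 1 point per library (3 CsiRNA, 3 NEAT1siRNA) and a bar at each group mean. WNT5B, FZD7, FZD8, SFRP1, DKK1, FZD2, DKK3 and AXIN2 sit lower in all 3 NEAT1siRNA libraries and WNT5A and TCF7 sit higher. WNT2B, FZD6 and SFRP2 overlap. Of the separated genes, FZD2, DKK3, AXIN2 and TCF7 did not pass the test.

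Among the ligands, WNT5B was lower and WNT5A higher in BT-549/NEAT1siRNA cells. These close relatives are both best known for signalling without beta-catenin. WNT5B (GRCh38 chromosome 12, 1529891 to 1647212, plus strand) was the most abundant WNT transcript. Its level was 27.4, 25.3 and 21.1 TPM in the CsiRNA libraries and 15.7, 16.3 and 14.8 TPM in the NEAT1siRNA libraries. The groups did not overlap, and the mean fell from 24.6 ± 3.23 to 15.6 ± 0.753 TPM (SD, n = 3 each), which is 63.4% of the control. The log2 fold change of WNT5B was -0.62 (SE 0.10, 95% confidence interval -0.82 to -0.41, adjusted p = 0.00012, limma), and each library held 651 to 1197 reads of it.

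WNT5A (chromosome 3, 55465715 to 55490539, minus strand) moved the other way. It measured 3.97, 3.3 and 2.98 TPM with CsiRNA and 4.76, 5.78 and 5 TPM with NEAT1siRNA. All 3 NEAT1siRNA values were higher than any control value, and the mean rose from 3.42 ± 0.504 to 5.18 ± 0.535 TPM (SD, n = 3 each), a 1.52-fold difference. The log2(TPM + 1) fold change was 0.49 (SE 0.10, 95% interval 0.28 to 0.70, adjusted p = 0.0021, limma). The added 1 shrinks changes of low genes, and with 0.1 added instead the log2 fold change was 0.59 (adjusted p = 0.00205, limma). Median centring with the added 1 kept gave 0.54 (adjusted p = 0.000802, limma). A fit of the recovered reads with voom, which weights log counts by their precision and scales libraries in another way, gave 0.66 (adjusted p = 4.76e-05). The call on WNT5A was lost when no minimum on TPM was set (adjusted p = 0.0812, limma). It was also lost when a log2 change of at least 0.5 was required. With a minimum of 5 TPM, WNT5A was not tested, as its mean was 4.3 TPM. WNT2B, a ligand of the beta-catenin branch, was the only other WNT above the minimum. Its 1.73 ± 0.207 TPM with CsiRNA and 1.5 ± 0.204 TPM with NEAT1siRNA (SD, n = 3 each) overlapped between groups, with a log2 fold change of -0.13 (95% interval -0.34 to 0.082, adjusted p = 0.456, limma).

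The summed level of the WNT ligands went from 31.2 ± 3.5 to 23.4 ± 1.37 TPM, or 74.9% of the control. Within that sum, WNT5B made up 76.1% to 81.1% in the CsiRNA libraries and 65.7% to 67.5% in the NEAT1siRNA libraries. The share of WNT5A was 10.6% to 11.4% with CsiRNA and 20.5% to 23.3% with NEAT1siRNA. The ratio of WNT5A to WNT5B within a library does not depend on the scaling of that library. It was 0.145, 0.13 and 0.142 in the CsiRNA libraries and 0.303, 0.355 and 0.337 in the NEAT1siRNA libraries. A ratio can still follow the trend on GC content, which is 41.6% for WNT5A and 58.6% for WNT5B. With the GC and length trend removed, the log2 fold changes were 0.47 for WNT5A and -0.62 for WNT5B (limma). This ratio of WNT5A to WNT5B and the other ratios below were chosen after the levels were seen and are given as descriptions.

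**Figure D2:**
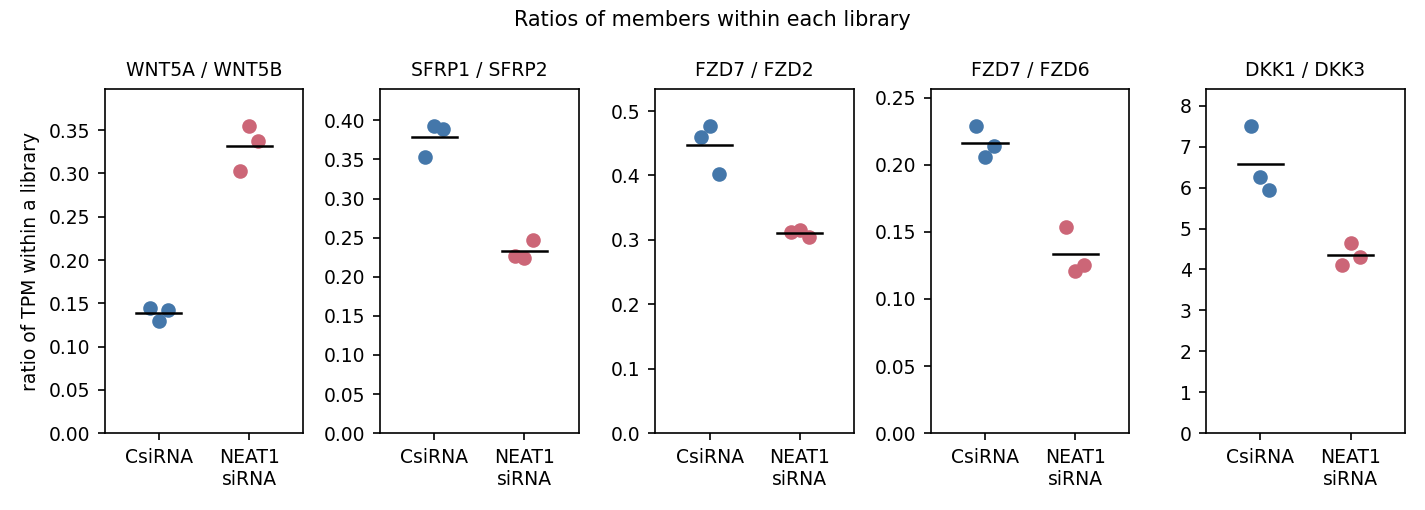
Ratios of TPM within each library for 5 pairs of genes, with axes starting at 0, 1 point per library (3 CsiRNA, 3 NEAT1siRNA) and a bar at each group mean. WNT5A over WNT5B is higher in the NEAT1siRNA libraries (0.303 to 0.355 against 0.13 to 0.145), and the 4 other ratios are lower.

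A single promoter window is shown for each of WNT5B, WNT5A, DKK1 and TCF7. WNT5B and WNT5A were taken since they moved in opposite directions, and the windows of DKK1 and TCF7 are where a listed motif was found. For WNT5B and WNT5A the window further upstream is printed. Their second windows and those of WNT2B, which are not printed, held no listed motif. Each sequence is the 250 bases before a RefSeq transcription start (assembly GRCh38.p14), read 5′ to 3′ on the strand of the gene. WNT5B, WNT5A and TCF7 each have a pair of such windows, and the windows of these genes shown here lie inside the spans that GENCODE gives the genes. Capitals mark the matches to the motifs.
WNT5B, chr12:1616806-1617055, plus strand: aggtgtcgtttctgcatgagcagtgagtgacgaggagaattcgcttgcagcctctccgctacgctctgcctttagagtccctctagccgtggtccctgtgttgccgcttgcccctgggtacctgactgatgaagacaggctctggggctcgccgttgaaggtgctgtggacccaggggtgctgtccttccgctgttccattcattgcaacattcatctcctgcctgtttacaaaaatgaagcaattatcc
WNT5A, chr3:55487307-55487556, minus strand: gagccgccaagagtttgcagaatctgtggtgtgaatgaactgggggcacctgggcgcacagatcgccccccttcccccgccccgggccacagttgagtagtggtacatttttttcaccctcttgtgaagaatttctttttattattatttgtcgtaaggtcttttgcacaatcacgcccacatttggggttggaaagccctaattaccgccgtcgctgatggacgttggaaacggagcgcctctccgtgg
DKK1, chr10:52314031-52314280, plus strand: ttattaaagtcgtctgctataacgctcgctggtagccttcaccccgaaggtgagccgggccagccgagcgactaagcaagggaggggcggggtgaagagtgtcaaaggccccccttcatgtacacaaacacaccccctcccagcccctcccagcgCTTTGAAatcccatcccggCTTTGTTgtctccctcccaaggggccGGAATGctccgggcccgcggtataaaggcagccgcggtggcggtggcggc
TCF7, chr5:134123368-134123617, plus strand: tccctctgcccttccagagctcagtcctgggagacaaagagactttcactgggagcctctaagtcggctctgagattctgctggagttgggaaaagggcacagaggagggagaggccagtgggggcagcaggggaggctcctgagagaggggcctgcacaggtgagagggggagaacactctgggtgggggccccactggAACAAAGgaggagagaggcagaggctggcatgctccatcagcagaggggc

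Both strands were searched for a TCF/LEF motif (AACAAAG and its variants ATCAAAG and also TACAAAG and also TTCAAAG), the E-box bound by MYC (CACGTG), the TEAD motif (CATTCC) and the AP-1 motif (TGANTCA). Windows were read for 27 of the 40 genes, 31 windows in all. None was read for FZD7 and SFRP1, which fell, so the search does not cover these genes. Chromosome 8, where SFRP1, FZD6, FZD3 and DKK4 lie, was left out for the 40 genes. It was not left out for the set of all promoter windows. The TCF/LEF letters stood in 2 of the 31 windows, in DKK1 and in the second TCF7 window, and in 12% of all 35116 promoter windows of this length. In DKK1 they occurred at 95 and 76 bases before the start, both on the minus strand, and in TCF7 at 50 bases before it. The TEAD letters were found in 1 window, at 50 bases before the DKK1 start, against 11.9% of all windows. No window held the E-box (6.34% of all windows) or the AP-1 letters (6.57%). The windows of WNT5B and WNT5A, and that of FZD8, held none of these letters. A match is a description of the letters and not a measured binding site.

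Of the 10 Frizzled receptors, 4 passed the minimum, and FZD7 and FZD8 fell while FZD2 and FZD6 did not pass the test. FZD7 (chromosome 2, 202033855 to 202038441, plus strand), a receptor often linked to beta-catenin signalling in TNBC, measured 8.98, 7.93 and 7.34 TPM with CsiRNA. With NEAT1siRNA it measured 5.01, 5.06 and 4.3 TPM. The groups stood well apart, and the mean of 8.08 ± 0.83 TPM fell to 4.79 ± 0.423 TPM (SD, n = 3 each), or 59.2% of the control. The log2 fold change of FZD7 was -0.65 (SE 0.10, 95% interval -0.85 to -0.45, adjusted p = 6.6e-05, limma), with 333 to 696 reads per library.

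FZD8 (chromosome 10, 35638247 to 35642296, minus strand), another receptor that couples to the LRP coreceptors, fell by the same proportion from a lower level. It measured 3.34, 3.21 and 2.78 TPM in BT-549/CsiRNA cells and 2.08, 1.76 and 1.68 TPM in BT-549/NEAT1siRNA cells. The groups did not overlap, and the means were 3.11 ± 0.296 and 1.84 ± 0.211 TPM (SD, n = 3 each). Its log2(TPM + 1) fold change was -0.53 (SE 0.10, adjusted p = 0.000635, limma), and voom on 106 to 214 reads per library gave -0.71 (adjusted p = 0.00047). Sequences of 50 bases that FZD7 and FZD8 transcripts share with other genes made up 0.441% and 0.85% of them.

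FZD2, a receptor known to respond to WNT5A, measured 19.5, 16.6 and 18.2 TPM with CsiRNA and 16, 16.1 and 14.1 TPM with NEAT1siRNA. Every NEAT1siRNA value was below every control value, but the step was small, at 85% of the control mean. The log2 fold change of -0.22 (SE 0.10, 95% interval -0.42 to -0.025) did not pass adjustment over all genes (adjusted p = 0.126, limma). FZD6, the most abundant Frizzled and a receptor known from planar polarity, measured 39.2, 38.4 and 34.3 TPM with CsiRNA and 32.6, 41.8 and 34.3 TPM with NEAT1siRNA. These groups overlapped, with a log2 fold change of -0.046 (95% interval -0.25 to 0.16, adjusted p = 0.815, limma) whose sign turned with median centring (0.011) and without NEAT1siRNA replicate 1 (0.025).

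The summed level of the Frizzled genes was 69.1 ± 4.52 TPM with CsiRNA and 61.1 ± 5.88 TPM with NEAT1siRNA. FZD6 made up 52.8% to 56.1% of it with CsiRNA and 55.8% to 61.6% with NEAT1siRNA, which overlap slightly. FZD7 took 11.3% to 12.2% of the sum with CsiRNA and 7.45% to 8.58% with NEAT1siRNA. The ratio of FZD7 to FZD2 ran from 0.403 to 0.477 in the CsiRNA libraries and from 0.305 to 0.315 in the NEAT1siRNA libraries. The ratio of FZD7 to FZD6 ran from 0.206 to 0.229 with CsiRNA and from 0.121 to 0.154 with NEAT1siRNA.

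**Figure D3:**
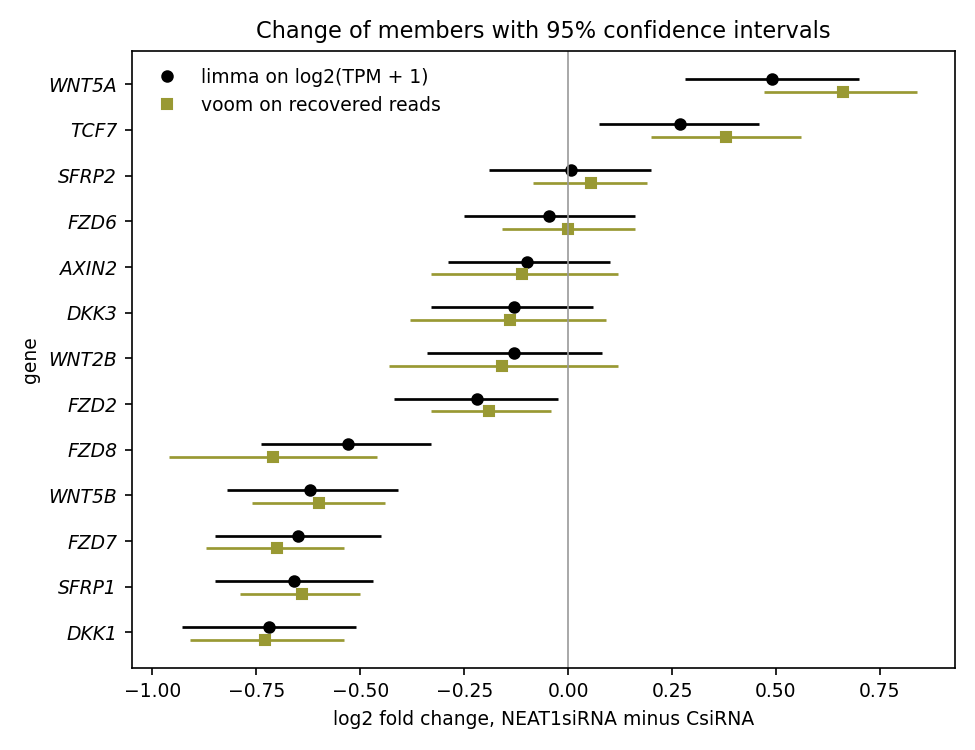
Log2 fold change of the 13 tested genes, NEAT1siRNA minus CsiRNA, with 95% confidence intervals as lines. Circles are limma on log2(TPM + 1) and squares are voom on recovered reads, and both place WNT5B, FZD7, FZD8, SFRP1 and DKK1 below 0 and WNT5A and TCF7 above it.

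The secreted inhibitors split in the same way, with a member that fell and a member that did not pass in each family. SFRP1 (chromosome 8, 41261962 to 41309473, minus strand), which binds WNTs and is often silenced in breast cancer, measured 24.9, 25.3 and 23.9 TPM with CsiRNA and 14.5, 16.7 and 14.9 TPM with NEAT1siRNA. The 2 groups were tight and far apart, and the mean fell from 24.7 ± 0.696 to 15.3 ± 1.17 TPM (SD, n = 3 each), or 62% of the control. The log2 fold change of SFRP1 was -0.66 (SE 0.092, 95% interval -0.85 to -0.47, adjusted p = 2.22e-05, limma), on 1349 to 2661 reads per library.

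SFRP2, a WNT-binding relative of SFRP1, was the most abundant of the 40 genes. It measured 70.6, 64.4 and 61.6 TPM with CsiRNA and 63.6, 74.3 and 60.1 TPM with NEAT1siRNA. The groups overlapped, with a log2 fold change of 0.0073 (SE 0.10, 95% interval -0.19 to 0.20, adjusted p = 0.975, limma). For both SFRP2 and FZD6 the highest value was that of NEAT1siRNA replicate 2, the library with the strongest trend on GC content, and with the GC and length trend removed the log2 fold change was -0.10 for FZD6 (adjusted p = 0.446, limma) and 0.026 for SFRP2 (adjusted p = 0.861, limma). The ratio of SFRP1 to SFRP2 was 0.353, 0.393 and 0.389 in the CsiRNA libraries and 0.227, 0.224 and 0.247 in the NEAT1siRNA libraries. SFRP1 made up 26.1% to 28.2% of the summed SFRP level with CsiRNA and 18.3% to 19.8% with NEAT1siRNA.

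DKK1 (chromosome 10, 52314281 to 52318042, plus strand), whose promoter window is printed above and which is also a known beta-catenin target, had the largest change among the 13 genes in the limma fit. It measured 19.3, 16.5 and 15.1 TPM in BT-549/CsiRNA cells and 8.85, 11.2 and 9.66 TPM in BT-549/NEAT1siRNA cells. The groups did not overlap, and the mean fell from 17 ± 2.13 to 9.89 ± 1.17 TPM (SD, n = 3 each), or 58.3% of the control. The log2 fold change of DKK1 was -0.72 (SE 0.10, 95% interval -0.93 to -0.51, adjusted p = 3.43e-05, limma), on 332 to 672 reads per library. PRKG1-AS1 overlaps DKK1 exons on the opposite strand and was low, at 0.516 ± 0.202 TPM with CsiRNA and 0.343 ± 0.0465 TPM with NEAT1siRNA. The libraries were stranded, but the strand setting of the counting is not given in the sources used here. Genes on the opposite strand overlap exons of other tested genes as well. USP47 overlaps DKK3, at 7.86 TPM with CsiRNA and 7.24 TPM with NEAT1siRNA. ST7L overlaps WNT2B (3.34 and 3.12 TPM), and BAALC-AS1 overlaps FZD6 (0.219 and 0.266 TPM). FZD8 exons overlap ENSG00000287528 on the opposite strand and MIR4683 on the same strand. Whether these overlaps affect the levels was not tested.

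DKK3, a divergent Dickkopf, measured 2.57, 2.63 and 2.55 TPM with CsiRNA and 2.15, 2.41 and 2.25 TPM with NEAT1siRNA. The groups did not overlap, yet the difference was small, with a log2 fold change of -0.13 (95% interval -0.33 to 0.06, adjusted p = 0.386, limma). The ratio of DKK1 to DKK3 was 7.51, 6.25 and 5.94 with CsiRNA and 4.12, 4.64 and 4.3 with NEAT1siRNA. The DKK genes together went from 19.5 ± 2.12 to 12.2 ± 1.3 TPM, or 62.3% of the control.

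Of the genes that report or carry beta-catenin output, neither AXIN2 nor TCF7 passed the test, and LEF1 was too low for it. AXIN2, the negative feedback regulator that beta-catenin induces, measured 2.36, 2.12 and 2.3 TPM with CsiRNA and 2.1, 1.93 and 2.1 TPM with NEAT1siRNA. Its groups lay just apart, with a log2 fold change of -0.10 (95% interval -0.29 to 0.10, adjusted p = 0.546, limma). Its level is uncertain, since 30.2% of the 50-base stretches of its transcript also occur in an overlapping gene on the same strand (ENSG00000266076).

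TCF7, which encodes the factor TCF1, measured 3.29, 3.18 and 3.4 TPM with CsiRNA and 4.11, 4.32 and 4.03 TPM with NEAT1siRNA. All NEAT1siRNA values exceeded all control values, and the mean of 4.15 ± 0.148 TPM was 1.26-fold that of 3.29 ± 0.111 TPM (SD, n = 3 each). The log2 fold change of 0.27 (SE 0.093, 95% interval 0.075 to 0.46) just missed the threshold (adjusted p = 0.0566, limma). It passed under 7 of 17 other settings, among them voom on recovered reads (0.38, adjusted p = 0.00452). SKP1, a gene of 88.4 ± 3.9 TPM with CsiRNA and 96.9 ± 12.4 TPM with NEAT1siRNA, overlaps TCF7 exons on the opposite strand. LEF1, the relative of TCF7 that beta-catenin signalling often induces, had only 21 reads in the 6 libraries, at 0.0119 to 0.106 TPM.

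The 15 genes above 0 with a mean under 1 TPM were followed by their recovered reads, which are not scaled to the depth of a library. FZD4, the receptor for norrin as well as WNTs, had 155, 127 and 143 reads in the CsiRNA libraries and 151, 165 and 153 in the NEAT1siRNA libraries. FZD5 had 126, 123 and 144 reads with CsiRNA and 115, 154 and 109 with NEAT1siRNA. Neither separated the groups. FZD1 had 38, 30 and 37 reads with CsiRNA and 40, 68 and 46 with NEAT1siRNA, and WNT10B, a ligand of the beta-catenin branch, had 44, 36 and 76 with CsiRNA and 39, 32 and 27 with NEAT1siRNA. These were the only low genes of the 8 in the voom fit with an unadjusted p under 0.05, and none of the 8 passed adjustment, against 21.9% of all 12716 genes in that fit. The voom log2 fold change was 0.58 for FZD1 (95% interval 0.13 to 1.03, adjusted p = 0.0609) and -0.58 for WNT10B (95% interval -1.08 to -0.069, adjusted p = 0.0985). WNT3 (30 to 44 reads per library), FZD9 (13 to 25), FZD3 (8 to 21), WNT7B (7 to 13) and WNT9A (1 to 12) were lower still, and 5 genes had 1 to 7 reads in all 6 libraries together. For those 5 genes no difference was detectable at this depth. In TPM, WNT3 separated the groups, at 0.14 to 0.161 with CsiRNA and 0.165 to 0.194 with NEAT1siRNA. Its voom log2 fold change was 0.24 (adjusted p = 0.422).

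**Figure D4:**
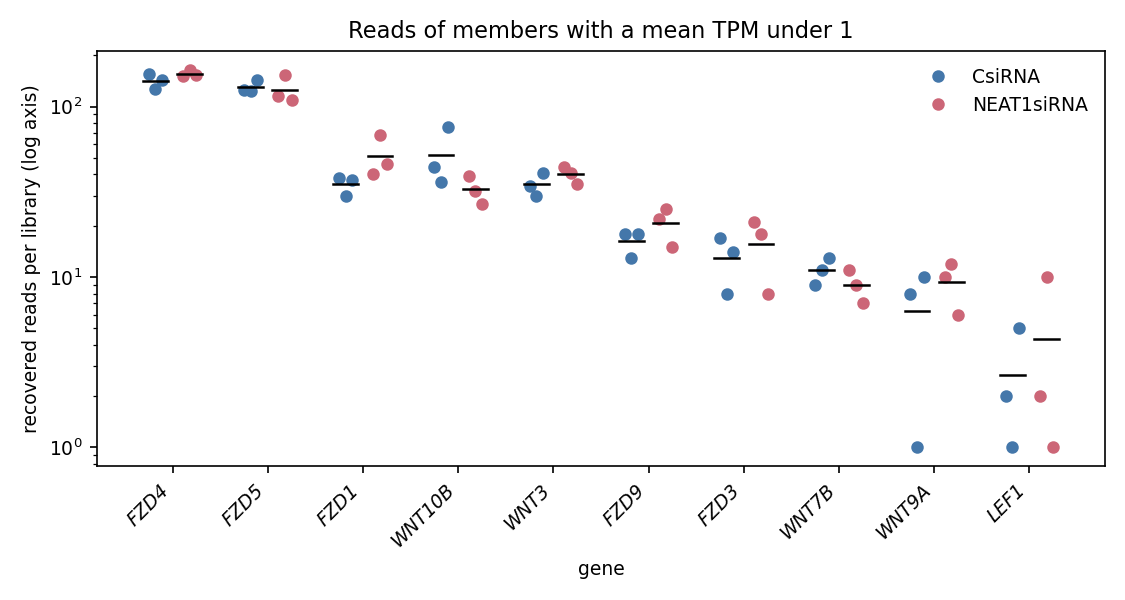
Recovered reads per library on a log axis for the 10 WNT pathway genes with a mean under 1 TPM and at least 20 reads in all, with 1 point per library (3 CsiRNA, 3 NEAT1siRNA) and a bar at each group mean. FZD4 and FZD5 lie above 100 reads in every library, and LEF1 lies at 1 to 10.

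The rest of the pathway was read from 6 lists holding 93 further genes, of which 61 reached the minimum, 6 fell and 3 rose (limma, adjusted p under 0.05), while 52 did not pass. These counts lie near the background of 8.98% of all tested genes that fell and 4.99% that rose. Higher calls outnumbered lower ones with voom (15 and 8) and with median centring (11 and 7). The median log2 fold change of the 61 genes was -0.045, close to that of all genes. None of the 8 tested coreceptors and surface regulators passed in the limma fit, nor did any of the 12 genes of the planar polarity and calcium branch. With voom, the coreceptor LRP6 (-0.27, adjusted p = 0.00959) and the calcium-dependent kinase gene CAMK2D (0.33, adjusted p = 0.00299) of these lists passed. The Dishevelled and destruction complex list had 1 call among 18 genes, namely the scaffold AMER1 (-0.34, adjusted p = 0.0298, limma). CTNNB1, which encodes beta-catenin, averaged 63.9 TPM with CsiRNA and 59.5 TPM with NEAT1siRNA and did not pass.

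Of 8 tested genes known as beta-catenin targets, apart from the 40, CCND1, MYC and CD44 fell and APCDD1 rose. Of all tested genes, 8.98% fell and 4.99% rose. The other 4 targets did not pass (limma). They were BAMBI (-0.035, adjusted p = 0.865), BIRC5 (0.083, adjusted p = 0.594), SOX4 (0.23, adjusted p = 0.142) and ZNRF3 (-0.20, adjusted p = 0.176). SOX4 passed with voom (0.29, adjusted p = 0.0167). CCND1, the G1 cyclin D1, fell from 15 ± 0.253 to 8.67 ± 0.966 TPM (-0.73, adjusted p = 8.54e-06, limma). MYC fell from 36.7 ± 1.72 to 27.1 ± 1.1 TPM (-0.43, adjusted p = 0.00197, limma). APCDD1, a membrane-bound WNT inhibitor that is also on the list of extracellular modulators, rose from 1.77 ± 0.112 to 2.94 ± 0.363 TPM (0.50, adjusted p = 0.00107, limma). CCND1 and MYC have many other regulators. The adhesion receptor CD44 went from 262 ± 15.5 to 212 ± 16.8 TPM (-0.31, adjusted p = 0.0187, limma).

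Among 12 tested nuclear effectors, the beta-catenin cofactors PYGO2 (0.36, adjusted p = 0.0138, limma) and BCL9L (0.37, adjusted p = 0.0293, limma) rose and the chromatin remodeller CHD8 fell (-0.29, adjusted p = 0.0425, limma). The median log2 fold change of this list was 0.15, against -0.044 for all tested genes (limma). With voom, PYGO2, BCL9L and CHD8 passed in the same direction. BCL9, CTBP1, CTBP2, PYGO1, TCF7L2 and TLE1 also passed with voom, all higher (0.20 to 0.32, adjusted p between 0.00808 and 0.0439). The rest of the list passed in neither fit. Of all genes in the voom fit, 21.9% passed in either direction. Of 5 tested genes for ligand secretion and other extracellular modulators, the R-spondin RSPO3, which potentiates WNT signals, fell (-0.32, adjusted p = 0.0462, limma). RSPO3 averaged 2.65 TPM with CsiRNA and 1.91 TPM with NEAT1siRNA. The more abundant R-spondin RSPO2 went the other way, at 27 and 31 TPM. It did not pass in the limma fit (0.19, adjusted p = 0.201) but passed with voom (0.24, adjusted p = 0.0197). The calls on AMER1, CD44, CHD8, PYGO2, BCL9L and RSPO3 were each lost without CsiRNA replicate 1, with adjusted p between 0.0653 and 0.247 (limma), and only 3 of the 9 calls were left in that fit, while those on CCND1, MYC and APCDD1 held in every fit that tested them. There were 5 calls without CsiRNA replicate 2, where BCL9L, CD44, PYGO2 and RSPO3 were lost, and 5 without NEAT1siRNA replicate 3, where AMER1, CD44, CHD8 and RSPO3 were lost. Without NEAT1siRNA replicate 1, BCL9L, CD44 and PYGO2 did not pass.

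**Figure D5:**
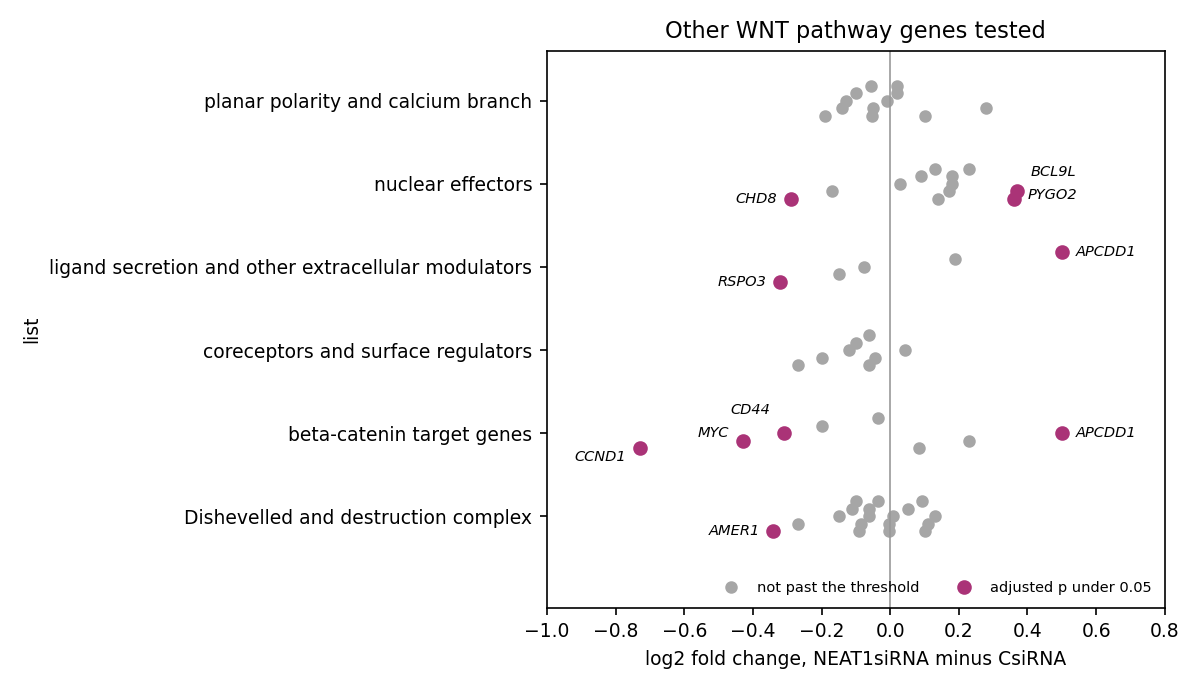
Log2 fold change, NEAT1siRNA minus CsiRNA, of the 61 tested genes of 6 other WNT pathway lists, 1 point per gene and list, with genes past the threshold coloured and named. CCND1 (-0.73) stands lowest and APCDD1 (0.50, on 2 lists) highest, and in this limma fit the coreceptor and planar polarity lists hold no coloured point.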

How the data were processed

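RNA-seq of 3 BT-549/CsiRNA and 3 BT-549/NEAT1siRNA libraries was analysed. The authors made stranded mRNA libraries, aligned reads with STAR to GRCh38 and compared groups with DESeq2. The counter and gene lengths are not given in the sources used here. The deposited TPM were scaled by the authors so that the genes of a library sum to 1000000. The other deposited table holds a signal that the authors averaged over the 6 libraries, namely counts divided by size factors, beside their own log2 fold changes, test scores and p-values, which were not used.

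log2(TPM + 1) of genes with a mean of at least 1 TPM was compared with limma 3.58.1 in R 4.3.3 (lmFit, eBayes with trend, two-sided). P-values of all 10721 genes were adjusted together (Benjamini-Hochberg) and called under 0.05. With 3 libraries against 3, an exact permutation test cannot go below p = 0.1 and was not used. As the TPM keep no depth, whole reads were recovered by joining the tables, at 15787040 to 20343890 per library. Each gene has a recovered value in each library. The distance to a whole number was under 0.05 in 99.9% of these values for genes under 5 mean counts. It was so in 98.6% from 5 to 50, 69.8% from 50 to 500 and 12.6% above, so that reads of abundant genes are approximate. These reads, for genes with a mean of at least 10, entered voom as an alternative. The fit was also run on simulated counts with the same dispersion for all genes and no GC trend. That run therefore does not show how the fit handles the GC trend of these libraries.

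The genes and lists were chosen with earlier results of these data known. Of the 40 genes, those with a mean of at least 1 TPM are named, as are lower ones with at least 20 reads and up to 4 called genes per other list. The genes at 0, CTNNB1, LRP6, CAMK2D, BAMBI, BIRC5, SOX4, ZNRF3, RSPO2 and the overlapping genes are named beyond this rule, after their values were seen. So are the nuclear effectors named only for their voom result. Of the genes in the table, 22278 matched GENCODE 44 (GRCh38) by symbol, and promoters came from RefSeq (GRCh38.p14). Alternatives covered the pseudocount, filters, scalings, variance model, voom, the replicate number as a block, GC content and length, thresholds and each library left out. Python 3.11.15 was used for the rest.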

Additional observations from a re-analysis of the deposited data

How the results depend on the processing

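WNT5B, FZD7, FZD8, SFRP1, DKK1 and NEAT1 were past the threshold, in the same direction, under each alternative in which they were tested, and the log2 fold change of NEAT1 ran from -1.63 to -1.21. The number of the 40 genes called was 6 in the reported fit and 4 to 7 in the others, with 7 where TCF7 passed and 6 each time a library was left out. Leaving out 1 library moved FZD6 between -0.15 and 0.025 and SFRP2 between -0.08 and 0.072, so that their signs turned. FZD6 was at 0.011 with median centring, 0.00048 with voom and 0.025 without NEAT1siRNA replicate 1. SFRP2 was at -0.004 without CsiRNA replicate 2, -0.035 without CsiRNA replicate 3 and -0.08 without NEAT1siRNA replicate 2.

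The 9 calls among the other WNT pathway genes moved more. Against 6 lower and 3 higher, they numbered 5 with no filter on TPM (2 lower, 3 higher), 17 with quantile normalization (7 lower, 10 higher), 18 with median centring (7 lower, 11 higher), 15 after rescaling without the 4 short RNAs (8 lower, 7 higher), 23 with voom (8 lower, 15 higher), 15 with the GC and length trend removed (8 lower, 7 higher), 3 at an adjusted p under 0.01, and 2 with a change of 0.5 or more on the log2 scale. Leaving out 1 library gave 3 to 11 calls, the latter without NEAT1siRNA replicate 2. Over all genes, the share of calls that were higher was 35.7% (535 higher, 963 lower). It was 49.4% with quantile normalization (1082 and 1109), 54.8% with median centring (1158 and 954) and 49.7% with voom (1382 and 1397), and 47.9% of 505 calls with no filter. Without CsiRNA replicate 1 it was 49.9% of 784 calls, without NEAT1siRNA replicate 3 49.3% of 832, and without NEAT1siRNA replicate 2 23.6% of 2076. The median of all genes stayed between -0.083 and 0.013. The cause of these shifts was not tested.

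Samples with the same replicate number did not deviate together for numbers 1 and 3 (r = -0.0304 and -0.107, across genes). For number 2 they did so to a small degree (r = 0.251). The numbers were not taken to pair the samples. With the replicate number as a block, 6 of the 40 genes and 10 of the other pathway genes were called and NEAT1 was at -1.41. The block with the GC and length trend removed, chosen after seeing the data, gave 7 and 15 calls.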
